A study of Mus musculus with 12 samples.

Results

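The genes described here are the mouse IFITM genes Ifitm1, Ifitm2, Ifitm3 and Ifitm6 and the tetherin gene Bst2, 5 of the 38739 gene symbols in the deposited table, taken by symbol. All 5 passed the filter on low values that left 11887 genes. RNA was sequenced from bone marrow-derived macrophages (BMDMs) of wild-type (WT) mice and of cGAS knockout (cGAS-/-) mice, kept in medium (untreated, UT) or given lipopolysaccharide (LPS) of E. coli 026:B6. There were 12 samples in 4 groups of 3, namely untreated WT (WT UT), LPS-treated WT (WT LPS), untreated knockout (cGAS-/- UT) and LPS-treated knockout (cGAS-/- LPS). Lipopolysaccharide is a cell wall component of Gram-negative bacteria that macrophages sense through the receptor TLR4, and cGAS is a cytosolic sensor of double-stranded DNA. The sample labels give LPS at 100 ng/mL for 1 h, whereas the study's methods give a higher dose and a much longer time, so the time of stimulation is not settled here. Both genotypes were young adult males on the C57BL/6J background, and the knockout removes cGAS from every cell, not from macrophages alone. A legend of the study describes the triplicates as technical, so the p-values below measure the spread between these samples, which may not include any difference between mice.

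IFITM proteins are small membrane proteins of the plasma membrane and of endosomes. They hinder the fusion of enveloped viruses with the membranes of the cell. IFITM3 acts mainly in late endosomes and lysosomes, IFITM2 is found largely in endosomes too, and IFITM1 sits mostly at the cell surface. IFITM6 is a rodent member with expression in myeloid cells. Tetherin, the product of Bst2, works at the opposite end of the virus life cycle, where it holds budded virus particles on the cell surface, and it also marks plasmacytoid dendritic cells in the resting mouse. Type I interferon induces these genes through the receptor IFNAR, the kinases JAK1 and TYK2, and transcription factors of the STAT and IRF families, which bind the interferon-stimulated response element (ISRE). In macrophages, LPS leads to interferon-beta through TLR4, TBK1 and IRF3.

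In GRCm39, the 4 IFITM genes lie within 63.1 kb of chromosome 7, and Bst2 lies apart on chromosome 8. In the GENCODE annotation, Ifitm2 spans chr7:140534738-140536228 on the minus strand, Ifitm1 chr7:140546316-140549743 on the plus strand, Ifitm3 chr7:140589499-140591282 and Ifitm6 chr7:140595612-140597837, both on the minus strand. Bst2 spans chr8:71986895-71990114 on the minus strand. The promoters of all 5 genes were found in the RefSeq table, which uses another build, GRCm38.p6, and gives 250 bases before and 50 bases from the start of each gene. They are shown because ISRE and STAT letters are what interferon signalling reads. The letters searched on both strands were the ISRE core GAAANNGAA and the STAT site TTCNNNGAA. Each line holds 60 bases, 5′ to 3′ on the gene's strand, and capitals mark a match to either motif.
Ifitm3: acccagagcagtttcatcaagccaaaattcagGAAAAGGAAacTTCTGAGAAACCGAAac
Ifitm2: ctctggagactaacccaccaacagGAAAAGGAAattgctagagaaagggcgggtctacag
Ifitm1: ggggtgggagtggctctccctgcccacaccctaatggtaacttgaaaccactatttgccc
Ifitm6: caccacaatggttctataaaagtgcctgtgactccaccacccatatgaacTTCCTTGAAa
Bst2: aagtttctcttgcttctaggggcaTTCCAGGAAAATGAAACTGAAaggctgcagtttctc

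In GRCm38.p6 these stretches are chr7:141010715-141010774 for Ifitm3, chr7:140955972-140956031 for Ifitm2, chr7:140968016-140968075 for Ifitm1, chr7:141016893-141016952 for Ifitm6 and chr8:71537573-71537632 for Bst2. Bst2 held 2 overlapping ISRE cores, the first letters of which were 130 and 124 bases before the start, and a STAT match that ran into the first of them. Ifitm3 held its 2 ISRE cores just inside the transcript, beginning at base 3 and base 20, with a STAT match between them that overlapped the second. Ifitm2 held 1 ISRE core 46 bases before the start, and its 9 letters are those of the first core of Ifitm3. Ifitm6 held a STAT match 10 bases before the start and no ISRE core, and Ifitm1 had neither within its 300 bases. Of 32851 promoters of 300 bases in the same table, 8.56% held the ISRE core and 8.3% the STAT site. A match is a description of the letters only, and binding was not measured.

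The deposited values were taken as TPM, a transcript abundance per length, averaged over the transcripts of a symbol. No source states the unit, which rests on the form of the values, and the depth behind them is unknown. By the decimals of the values, the average ran over 1 transcript for Ifitm3 and Ifitm2, 2 for Bst2, and 3 for Ifitm1 and Ifitm6, so levels of the last 3 genes are low against a sum over transcripts. Cgas, the deleted gene, served as the check of the labels and was at 1.19 to 3.25 TPM in the 6 WT samples and 0.0703 to 0.291 TPM in the 6 cGAS-/- samples. WT LPS replicates 1 and 3 had fewer genes above 0 than the other samples, at 12787 and 12261 against 15378 to 17573. Of these, replicate 3 also stood apart in its total. WT LPS replicate 3 summed to 709802 TPM against 447189 to 503156 in the 11 other samples, and Fth-ps3, a ferritin pseudogene, took 31.7% of it against 6.24% to 17.7%. The median standard deviation of a gene on the log2 scale was 0.635 among the WT LPS samples and 0.119 to 0.146 in the other 3 groups. Macrophage markers were present in every sample, with Lyz2, the macrophage lysozyme, at 15701 TPM or more. The 10 listed neutrophil markers, of interest since an extraction step in the labels names neutrophils, summed to 85.8 to 403 TPM against 19892 TPM or more for the macrophage markers. The lists for dendritic, T and NK, erythroid, and stromal and endothelial cells summed to at most 37.7 TPM each. Among markers of plasmacytoid dendritic cells, which express Bst2 at rest, Klk1 was at 0 in all samples and Siglech at no more than 0.0481 TPM, and the 5 listed markers summed to at most 14.1 TPM in any sample.

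Ifitm3 was the most abundant of the 5 genes in all groups but cGAS-/- UT. It was measured at 1175, 1100.1 and 1286 TPM in WT UT, and at 13049, 4609 and 1306 TPM in WT LPS. In cGAS-/- cells it was measured at 514, 508 and 508 TPM without LPS, and at 4086, 4156 and 4143 TPM with LPS. The cGAS-/- UT samples were therefore all below WT UT, and the WT LPS samples spread over a 9.99-fold range that contained the tight cGAS-/- LPS group. By rank, Ifitm3 was the 13th highest symbol in each cGAS-/- LPS sample, between 6th and 41st in WT LPS, between 45th and 50th in WT UT and between 93rd and 100th in cGAS-/- UT.

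Ifitm2 had the narrowest range of group means as a ratio of the highest to the lowest. It was measured at 762, 771 and 782 TPM in WT UT, and at 2429, 1307 and 341 TPM in WT LPS. In the knockout the values were 598, 599.8 and 568 TPM without LPS and 1185, 1218 and 1233 TPM with LPS. Here the third WT LPS sample lay below every untreated sample, whereas the first lay above all others.

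Ifitm1, the surface form, was expressed at a low level in these macrophages. It was measured at 4.46, 3.18 and 2.69 TPM in WT UT, and at 11.9, 7.14 and 16.95 TPM in WT LPS. Without cGAS it was at 2.12, 1.37 and 1.94 TPM without LPS and at 3.24, 4.61 and 3.21 TPM with LPS. It was the only one of the 5 with its highest value in WT LPS replicate 3, and its WT LPS samples lay above all 9 others.

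Ifitm6 was low without LPS and had the widest range of group means, as a ratio, of the 4 IFITM genes. It was measured at 6.84, 9.09 and 10.8 TPM in WT UT, and at 115, 61.8 and 19.6 TPM in WT LPS. The knockout gave 2.03, 1.37 and 2.34 TPM without LPS and 27.7, 31.4 and 28.0 TPM with LPS. Every LPS sample exceeded every UT sample, and every cGAS-/- UT sample was below every WT UT sample.

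Bst2 was measured at 115, 105 and 125 TPM in WT UT, and at 2856, 1294 and 707 TPM in WT LPS. The cGAS-/- samples gave 79.3, 80.7 and 75.1 TPM without LPS and 792, 769 and 742 TPM with LPS. As for Ifitm6, both LPS groups lay wholly above both UT groups. With LPS, WT replicates 1 and 2 exceeded the cGAS-/- samples and replicate 3 fell below them.

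**Figure D1:**
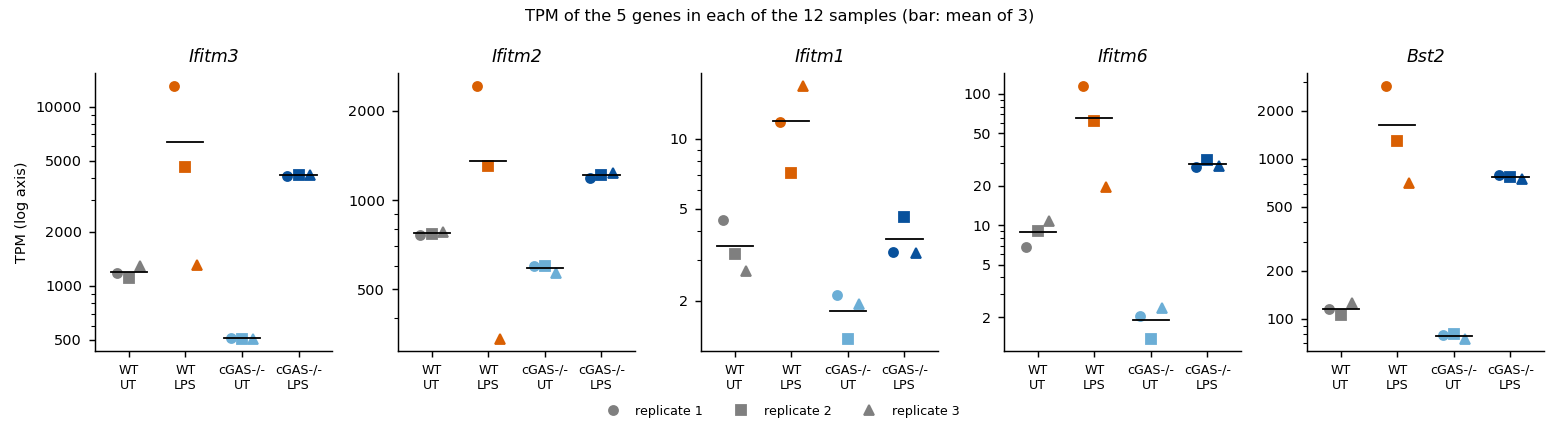
TPM of each gene (log axis, its own scale per panel) in the 12 samples by group, with 1 marker per replicate number and a bar at the mean of 3. The cGAS-/- UT samples are the lowest group in every panel except for 1 WT LPS sample of Ifitm2 at 341 TPM. The WT LPS samples are the most widely spread in every panel.

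The comparison of untreated cells asks what the knockout does before any stimulus. All 5 genes were lower in cGAS-/- UT than in WT UT with no overlap between the groups, whereas 18.4% of the 11887 genes tested were lower without overlap. The ratio of group means was 0.215 for Ifitm6, 0.430 for Ifitm3, 0.526 for Ifitm1, 0.682 for Bst2 and 0.763 for Ifitm2. The main test was limma on log2(TPM + 1) over all 12 samples, with Benjamini-Hochberg adjustment over all genes tested and a threshold of 0.05 on the adjusted p. Differences on this scale understate the change of low genes such as Ifitm1 and Ifitm6. By this test none of the 5 genes passed, and 2 of them, Ifitm6 and Ifitm1, had an unadjusted p under 0.05. Of all genes, 1.58% were called lower and 0.252% higher at the adjusted threshold, and 6.04% had an unadjusted p under 0.05 and were lower. Ifitm6 differed by -1.76 on the log2 scale (SE 0.494, limma adjusted p = 0.148), Ifitm3 by -1.21 (SE 0.595, limma adjusted p = 0.715) and Ifitm1 by -0.65 (SE 0.293, limma adjusted p = 0.608). Bst2 differed by -0.54 and Ifitm2 by -0.39, both with a limma adjusted p of 1.

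That test shares 1 spread over the groups, and the wide WT LPS samples enter it although they take no part in this comparison. Without the WT LPS samples, a setting chosen after the data were seen, 4 of the 5 genes passed, against 9.17% of all genes called lower in that fit, and the differences were the same. The limma adjusted p was then 4e-06 for Ifitm3, 1.35e-04 for Ifitm2, 2.94e-04 for Ifitm6 and 8.01e-04 for Bst2. The same 4 genes passed in a fit of the 6 untreated samples alone, where 7.07% of all genes were called lower, and all 5 passed with sample weights, where 8.03% were. Ifitm3 and Ifitm6 passed when WT LPS replicate 3 alone was left out, against 4.17% of all genes, and Ifitm6 when replicate 1 was, against 1.88%. Transcripts of other cell types were also apart between these groups. The 7 listed B cell markers summed to 108 to 134 TPM in WT UT and 19.9 to 28.5 TPM in cGAS-/- UT, led by Igkc and Ighm, while the defining marker Pax5 was at or near 0 in all samples. The 10 neutrophil and precursor markers summed to 173 to 243 TPM in WT UT and 85.8 to 157 TPM in cGAS-/- UT. Among them Ngp, a granule gene, was at 24.1 to 32.3 TPM against 0.657 to 3.13 TPM. Camp, Ltf, Mpo, Elane and Mmp8 were also lower in each cGAS-/- UT sample, and Cxcr2 overlapped. S100a8 overlapped, at 37.5 to 73.1 TPM against 21.5 to 50.1 TPM. So did S100a9, at 63.8 to 110 TPM against 30.6 to 72.3 TPM. Csf3r was higher in cGAS-/- UT, at 14.8 to 19.3 TPM against 11.6 to 14.6 TPM. The 9 stromal and endothelial markers summed to 8.38 to 10.6 TPM against 3.25 to 5.52 TPM, the T and NK cell markers to 0.622 to 0.723 TPM against 0.334 to 0.436 TPM, and the macrophage markers to 20428 to 21397 TPM against 24223 to 25946 TPM. The part of other cells in the differences was not tested, and in bulk samples fewer cells of a type and less RNA per cell cannot be told apart.

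LPS against UT in WT cells asks how the genes respond in normal macrophages. Bst2, Ifitm6, Ifitm3 and Ifitm1 rose, 4 of the 5 genes against 4.31% of all genes called higher. Bst2 rose by 3.58 on the log2 scale (SE 0.394, limma adjusted p = 1.06e-04), Ifitm6 by 2.45 (SE 0.494, limma adjusted p = 0.00483), Ifitm1 by 1.49 (SE 0.293, limma adjusted p = 0.00411) and Ifitm3 by 1.85 (SE 0.595, limma adjusted p = 0.0399). In each of these 4 genes the WT LPS samples lay wholly above WT UT, as did 5.31% of all genes. Bst2 and Ifitm6 also passed the study's added threshold of 2 on the log2 scale, which 1.43% of all genes passed upwards. Ifitm2 did not pass, at 0.41 with a 95% interval from -0.74 to 1.57. The call of Ifitm3 was not firm. It was lost without WT LPS replicate 1 (1.05, limma adjusted p = 0.0708), without replicate 2 (1.80, limma adjusted p = 0.0639), and when any sample of the other groups was left out, and it was kept without replicate 3. In a fit of the 6 WT samples alone Bst2 was the 1 gene that passed, against 1.4% of all genes called higher, while Ifitm6 and Ifitm1 had a limma adjusted p of 0.0742 and 0.0813. Without WT LPS replicate 3, Ifitm2 was at 1.21 and passed (limma adjusted p = 0.00133), against 8.26% of all genes. The median difference of all genes was -0.46 on the log2 scale in this comparison as the values were deposited and -0.11 after TMM scaling. Relative to the median as deposited, Bst2 was 4.04 and Ifitm2 was 0.87 higher, and relative to that after TMM scaling they were 4.34 and 1.18 higher. Of the marker lists, B cell markers summed to 108 to 134 TPM in WT UT and 30.6 to 44.9 TPM in WT LPS. Dendritic cell markers summed to 0.633 to 0.847 TPM and 1.31 to 2.23 TPM, and T and NK cell markers to 0.622 to 0.723 TPM and 0.146 to 0.611 TPM. The other lists overlapped between these groups, and the part of other cells in the rises was not tested.

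LPS against UT in cGAS-/- cells gave the cleanest values, because the 3 samples of each group were close. All 5 genes were higher in every LPS sample than in any UT sample, as were 15.5% of all genes. Ifitm6 rose by 3.38 on the log2 scale (SE 0.494, limma adjusted p = 8.39e-04), Bst2 by 3.28 (SE 0.394, limma adjusted p = 2.06e-04) and Ifitm3 by 3.01 (SE 0.595, limma adjusted p = 0.00565). These 3 genes passed also at the threshold of 2, against 4.76% of all genes called higher and 1.94% at that threshold. The 5 plasmacytoid dendritic cell markers summed to 0.229 to 1.37 TPM in cGAS-/- UT and 8.42 to 14.1 TPM in cGAS-/- LPS, against 1.41 to 6.04 TPM in WT LPS. Of that sum in cGAS-/- LPS, Cox6a2 made 8.30 to 13.9 TPM, while the defining markers Siglech and Klk1 were at or near 0. B cell markers summed to 19.9 to 28.5 TPM in cGAS-/- UT and 3.04 to 8.84 TPM in cGAS-/- LPS, and macrophage markers to 24223 to 25946 TPM and 35756 to 36131 TPM. Dendritic cell markers summed to 0.303 to 0.773 TPM and 0.859 to 1.35 TPM, and T and NK cell markers to 0.334 to 0.436 TPM and 0.0936 to 0.326 TPM. Their part in the rises was not tested. In means of TPM, Ifitm6 was 15.2-fold, Bst2 9.80-fold and Ifitm3 8.09-fold its UT level. Ifitm2 was at 1.04 (limma adjusted p = 0.254) and Ifitm1 at 0.73 (limma adjusted p = 0.139), and neither passed. Both passed without the WT LPS samples, with a limma adjusted p of 4.8e-08 for Ifitm2 and 0.0113 for Ifitm1, in a fit that called 12.7% of all genes higher. They passed also without WT LPS replicate 3 alone, against 9.19% of all genes, and Ifitm1 without replicate 2, against 6.33%.

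The comparison of LPS-treated cells asks whether the knockout changes the stimulated level. Ifitm1 alone passed, at -1.41 (SE 0.293, limma adjusted p = 0.0331), with all 3 cGAS-/- LPS samples below all WT LPS samples. Of all genes, 1% were called lower and 1.36% higher, and 5.17% were lower with no overlap. The B cell markers were apart here too, at 30.6 to 44.9 TPM in WT LPS and 3.04 to 8.84 TPM in cGAS-/- LPS, as were the stromal and endothelial markers, at 7.93 to 21.2 TPM against 4.77 to 5.94 TPM. The macrophage markers, at 19892 to 29844 TPM against 35756 to 36131 TPM, and the plasmacytoid dendritic cell markers were apart the other way, and the part of these cells in the difference was not tested. The call was close to the threshold. It was lost when WT LPS replicate 1, any cGAS-/- sample, or WT UT replicate 2 or 3 was left out, with a limma adjusted p of 0.0575 to 0.149, while the difference stayed between -1.55 and -1.34. It was lost also in a fit of the 6 LPS-treated samples alone (limma adjusted p = 0.442), with the replicate block (limma adjusted p = 0.0671), with TMM factors (limma adjusted p = 0.0537), with no filter (limma adjusted p = 0.0694) and with a pseudocount of 0.1 (limma adjusted p = 0.0602). With sample weights Ifitm1 was at -1.31 (limma adjusted p = 0.148) and did not pass, and Bst2 passed in its place at -1.43 (limma adjusted p = 0.0183), against 0.967% of all genes called lower. The other 4 genes did not pass, and their groups overlapped. Bst2 was at -0.84 (95% interval -1.71 to 0.02), Ifitm6 at -0.82 (-1.91 to 0.26), Ifitm3 at -0.05 (-1.36 to 1.26) and Ifitm2 at 0.24 (-0.92 to 1.39). Without WT LPS replicate 3, Ifitm6 was at -1.51 and Bst2 at -1.32. Both then passed, with a limma adjusted p of 0.00728 and 0.0118, against 4.44% of all genes called lower. Leaving out WT LPS replicate 1 instead gave -0.26 for Ifitm6 and -0.32 for Bst2, and neither passed. The sign for Ifitm3 and Ifitm2 depended on the sample left out. Ifitm3 was at 0.75 without WT LPS replicate 1, and Ifitm2 was at -0.56 without replicate 3.

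The test of the difference itself, the LPS effect in cGAS-/- minus that in WT, called none of the 5 genes, against 0.732% of all genes called higher and 0.168% lower. None was called at an unadjusted threshold of 0.05 either, where the lowest limma value was 0.0942 for Ifitm1. The intervals were wide, from -0.69 to 3.01 for Ifitm3 and from -1.52 to 0.93 for Bst2. The comparisons between genotypes and between treatments share groups, so their values are not independent of one another.

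**Figure D2:**
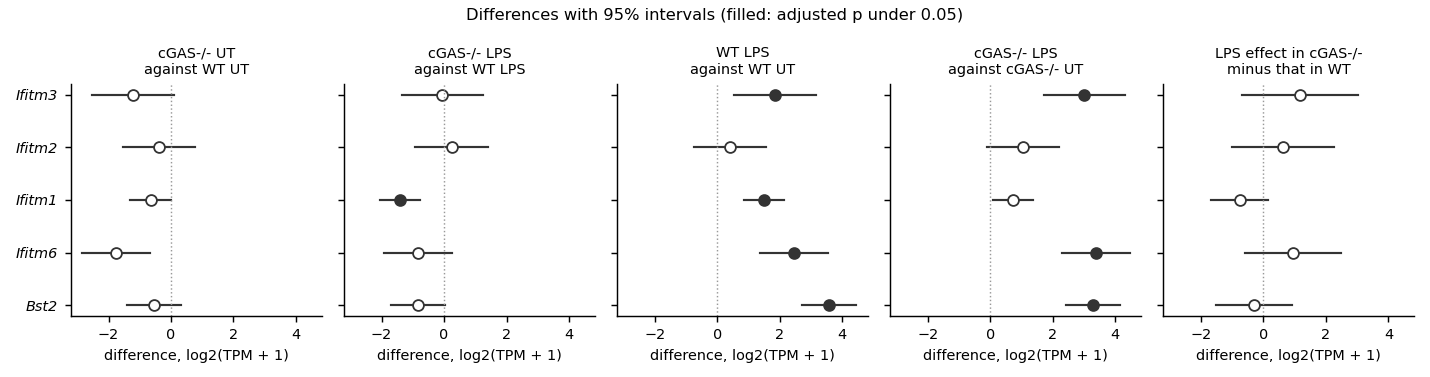
Difference of each gene on the log2(TPM + 1) scale in the 5 comparisons, with 95% intervals from limma. Filled points have an adjusted p under 0.05. The LPS comparisons hold 7 of the 8 filled points, and the interval of Ifitm3 in LPS-treated cells runs from -1.36 to 1.26.

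The spread among the 3 WT LPS samples had a pattern. Ifitm3, Ifitm2, Ifitm6 and Bst2 were each highest in replicate 1 and lowest in replicate 3, with Ifitm3 at 1.61 and -1.71 relative to the mean of the 3 on the log2 scale. Cytosolic ribosomal protein genes, 55 genes taken by name after the data were seen, went the same way, at 0.77 relative to their mean in replicate 1 and -0.84 in replicate 3. The 22 tested interferon-inducible effectors were highest in replicate 2, at 0.76 above the mean, and Ifitm1 was highest in replicate 3, at 0.54 above it. After the group means were taken off, the gene nearest to Ifitm2 over the 12 samples was Rps15 (Pearson r = 0.999). Chchd2, Fcer1g, Rpl38 and H2aj followed. The 5 nearest to Ifitm3 were Gm20390 (r = 0.998), Rpl28, Atp6v1f, Rpl32 and Mrps28. Those nearest to Bst2 were led by Atp6v1f (r = 0.996) and Atp5e (r = 0.993) and included Rps29 and Rpl41. For Ifitm6 they were Lsm8 (r = 0.993), Gm20498, Lamtor2, Timm10 and Fdps, and none of these is a ribosomal protein gene. Ska2 (r = 0.967), Bambi-ps1, Urm1, Selenok-ps1 and Ccr1l1 were nearest to Ifitm1. These correlations are carried largely by the 3 WT LPS samples, which share the library differences described above. Their part in the spread was not tested.

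**Figure D3:**
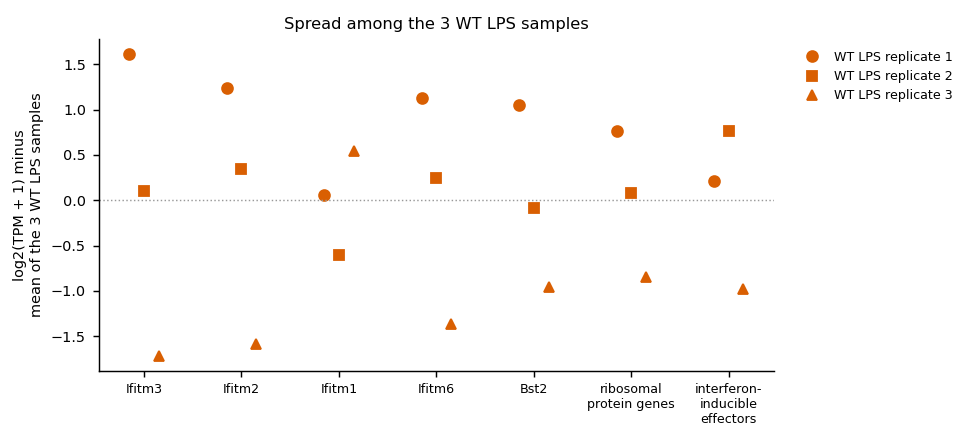
Each WT LPS sample's log2(TPM + 1) minus the mean of the 3 samples, for the 5 genes and for the mean of 55 ribosomal protein genes and of 22 interferon-inducible effectors. Replicate 3 is lowest throughout except for Ifitm1, where it is highest at 0.54.

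Ratios of 2 genes in the same sample do not change with the scaling of samples, and were added after the data were seen. Ifitm3 over Ifitm2 was 1.54, 1.43 and 1.64 in WT UT and 0.860, 0.847 and 0.894 in cGAS-/- UT, so the order of the pair was turned in each of the 3 cGAS-/- UT samples. With LPS it was 5.37, 3.53 and 3.83 in WT and 3.45, 3.41 and 3.36 in cGAS-/-, in both cases well above untreated cells. For both genes the deposited average ran over 1 transcript, so the order is one of levels per length. Ifitm2 over Bst2 was 6.28 to 7.31 in WT UT against 0.482 to 1.009 in WT LPS, and 7.44 to 7.56 in cGAS-/- UT against 1.496 to 1.66 in cGAS-/- LPS. Ifitm3 over Bst2 was 10.2 to 10.4 in WT UT and 6.30 to 6.76 in cGAS-/- UT. With LPS it was 1.85 to 4.57 in WT and 5.16 to 5.58 in cGAS-/-. For Ifitm6 over Bst2, the LPS groups overlapped, with means of 0.0386 in WT and 0.0379 in cGAS-/-, whereas the untreated means were 0.0774 and 0.0246. Groups that do not overlap reach p = 0.1 in a two-sided exact permutation test, the smallest that 3 against 3 allows, and 0.143 after Benjamini-Hochberg adjustment over the 40 tests of 10 ratios.

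**Figure D4:**
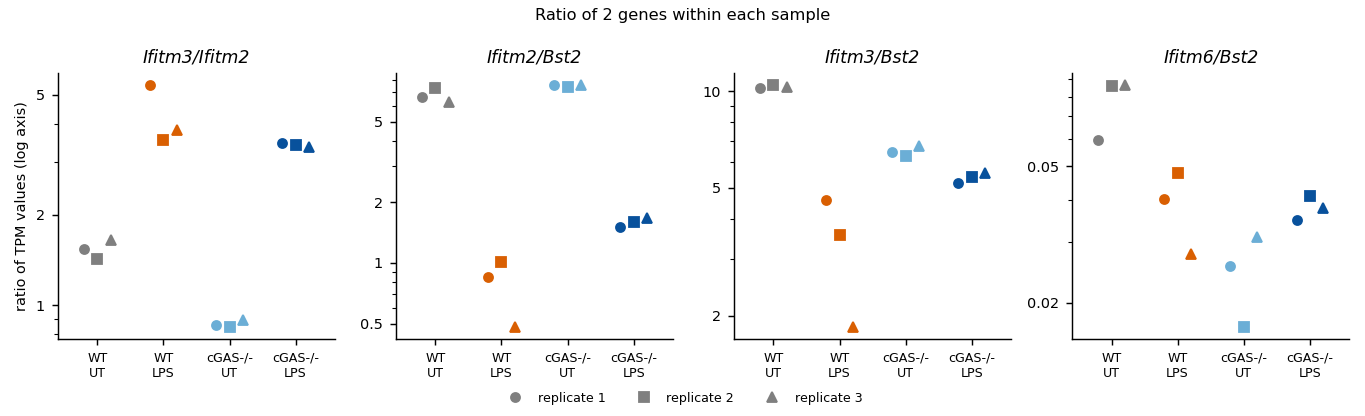
Ratio of the TPM values of 2 genes within each sample (log axes, 1 scale per panel), by group and replicate number. The cGAS-/- UT samples are the only ones with Ifitm3 over Ifitm2 under 1, at 0.847 to 0.894, and WT LPS replicate 3 has the lowest value of Ifitm2 over Bst2 and of Ifitm3 over Bst2.

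Sequence shared with other genes limits the IFITM values. Of the 31-base words in the annotated transcripts, 31.3% were shared with another gene for Ifitm2, 17.7% for Ifitm1 and 10.6% for Ifitm3, and 0 for Ifitm6 and Bst2. The sharing genes were the other IFITM genes and a set of mostly predicted genes. Ifitm1 stood at 1.37 to 16.95 TPM, far below Ifitm2 and Ifitm3, which stood at 341 to 13049 TPM. It shares stretches of 216 bases with Ifitm2 (86.6% identity) and Ifitm3 (88.0% identity). Its transcripts also align to Gm64847 over 531 bases at 97.6% identity and to Ifitm7 over 598 bases at 86.3%, and neither of these was analysed here. Of the 7 sharing genes outside the 5, 5 were listed, the highest being Gm45717 at up to 12.5 TPM. How reads were divided between these genes was not tested, so the values of Ifitm1 are uncertain. Those relatives of the IFITM family that were listed were near absent. Ifitm7, Prrt1 and Prrt1b were not listed, so their levels are unknown. Of 11 relatives 8 were listed, 1 of them, Ifitm5, passed the filter, and the highest value was its 2.73 TPM in WT LPS replicate 1.

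Other genes of the pathway are given by lists chosen with earlier results of these data known. Of the 24 genes fixed for interferon and TLR4 signalling, 16 were listed and tested. In WT LPS against WT UT 9 of them rose and 2 fell, against 4.31% of all genes called higher and 23.3% lower, and the median difference was 1.16 where the median of all genes was -0.46. In the knockout 9 rose and none fell, against 4.76% of all genes called higher and 9.06% lower, with a median of 1.15. Socs3, a feedback inhibitor of cytokine receptors, rose by 4.77 in WT and 6.08 in cGAS-/- on the log2 scale. Usp18, which removes ISG15 and damps the interferon receptor, rose by 4.55 and 4.54, and Irf7, a transcription factor of interferon genes, rose by 4.46 and 5.42. Ifngr1, a chain of the interferon-gamma receptor, fell by 1.80 in WT, and Irf8 fell by 0.85.

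Ifnb1, the gene of interferon-beta, was the 1 gene of this list called between genotypes, in LPS-treated cells, where 1% of all genes were called lower and 1.36% higher. It was at 8.43, 7.21 and 9.60 TPM in WT LPS and at 3.42, 3.24 and 2.58 TPM in cGAS-/- LPS, and at 0.30 TPM or less in all UT samples. The difference with LPS was -1.20 (SE 0.178, limma adjusted p = 0.00597), and the difference of the LPS effects was -1.08 (limma adjusted p = 0.0873). Usp18 and the kinase gene Ikbke, named after their values were seen, did not pass but had groups apart. Usp18 was at 2.73 to 4.43 TPM in WT UT against 0.844 to 1.74 TPM in cGAS-/- UT (limma adjusted p = 0.107), and at 76.2 to 122 TPM against 49.0 to 50.9 TPM with LPS (limma adjusted p = 0.0849). Ikbke was at 18.6 to 20.1 TPM in WT UT against 8.53 to 9.54 TPM in cGAS-/- UT (limma adjusted p = 0.0928). Like Ifitm1, and unlike the other 4 genes, Ifnb1 was highest in WT LPS replicate 3.

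Among 22 tested interferon-inducible effectors, of 31 fixed, 18 rose with LPS in WT and 21 in cGAS-/- cells, against 4.31% and 4.76% of all genes called higher, with medians of 2.46 and 2.84. Isg15, the ubiquitin-like modifier, rose most in both, by 5.13 and 5.82. Ifi44 and Gbp2 followed in WT at 4.48 and 4.36, and Zbp1, a sensor of nucleic acids, and Gbp2, a guanylate-binding protein, followed in cGAS-/- at 5.43 and 4.98. In untreated cells 1 of the 22, Ifi27l2a, was called lower in cGAS-/-, at -2.58, against 1.58% of all genes, and the median was -0.73 where that of all genes was -0.04. The 5 genes described here had a median of -0.65 in the same comparison. In LPS-treated cells 1 of the 22 was called lower, Igtp, an immunity-related GTPase, at -1.40, against 1% of all genes.

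Of 13 genes fixed for proteins that handle or bind IFITM proteins and tetherin, 8 were tested. With LPS 5 fell in WT and 3 in cGAS-/- cells and none rose, against 23.3% and 9.06% of all genes called lower. The medians were -0.996 and -0.41, where those of all genes were -0.46 and -0.20. Cd9 and Cd81, tetraspanins of the cell surface, fell in both genotypes, with differences of -3.76 and -1.45 in WT and -3.33 and -1.34 in cGAS-/-. Zmpste24, a membrane protease that works with IFITM proteins, fell by 1.28 in WT, and Setd7, a methyltransferase that acts on IFITM3, fell by 1.17 in WT and by 0.85 in cGAS-/-. Between genotypes only Ctsl, the lysosomal protease cathepsin L, was called, lower in cGAS-/- at -1.09 without LPS and -1.81 with LPS on the log2 scale, against 1.58% and 1% of all genes called lower.

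**Figure D5:**
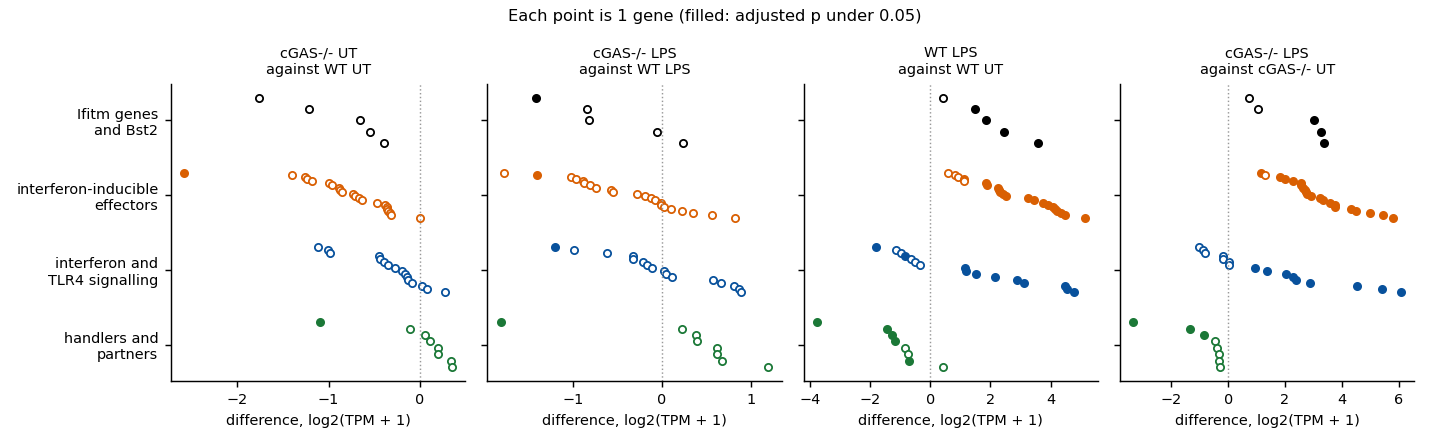
Difference on the log2(TPM + 1) scale of each gene of 4 sets in the 4 comparisons between groups, with filled points for an adjusted p under 0.05 and a scale of its own for each panel. With LPS, 18 of 22 effectors in WT and 21 of 22 in cGAS-/- are filled on the right, and Cd9 is the point farthest to the left.

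The genes most like each of the 5 over the 12 samples, by Pearson's r of log2(TPM + 1) among all genes tested, differed between them. Bst2 was most like Isg15 (r = 0.991), followed by Tgtp2, Oas1a, Nr1h3 and Cxcl10. Ifitm6 was most like the chemokine genes Ccl7 (r = 0.991) and Ccl2 (r = 0.981), followed by the Fc receptor gene Fcgr4, Ifitm3 and Oas1g. Ifitm3 was most like Rab20 (r = 0.970) and then Ifitm6 (r = 0.967), with Gm5150, Vcam1 and Nupr1 after them. Ifitm2 was most like Cycs, Clec2d, Gmfg, Txn1 and Sertad3 (r from 0.968 to 0.972), and Ifitm1 most like Urm1 (r = 0.966), Hexim2, Snrnp35, Bambi-ps1 and Gm7582. Between the members, r was highest for Ifitm3 with Ifitm6 and lowest for Ifitm1 with Ifitm2 (r = 0.182). These values describe 12 samples of 4 groups that share a treatment and the wide WT LPS libraries.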

How the data were processed

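STAR and Kallisto were used by the authors for mapping to GRCm39 and for quantification, and the labels add fastp. They deposited 1 table of 38739 symbols and 12 columns. Its values were taken as TPM averaged over transcripts, as inferred from their decimals. Column sums were 447189 to 709802, so that the depth is unknown and no counting interval is given. No count model was run. Values were used as deposited, as log2(TPM + 1). The filter kept the 11887 genes that reached 1 TPM in 3 or more of the 12 samples, each sample being rescaled for this step alone. Group means over all 12 samples were fitted in R 4.3.3 with limma 3.58.1, its variance prior following the mean level, and p-values were adjusted by Benjamini-Hochberg over all genes tested. Alternatives were other pseudocounts, filters and scalings, the 6 samples compared alone, sample weights, a replicate block, no variance trend, sums over transcripts, and each sample left out in turn. Transcripts were compared in 31-base words and with blastn 2.17.0. All 5 genes were named in every comparison. From the lists, those called with the 3 largest changes each way were named, with Irf7 and Ifnb1, and Usp18 and Ikbke between genotypes after their values were seen. Some genes that this rule covers are not reported here. The members and lists were chosen with earlier results of these data known. The labels name neutrophils in the extraction step and another sequencer than the methods.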

Additional observations from a re-analysis of the deposited data

How the results depend on the processing

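Over 605 values of the 5 genes under the alternatives, 534 kept their direction and their side of the threshold, 31 lost a call, 30 gained one and 10 changed sign. In untreated cells the number of genes passing went from 0 to 4 with the 6 samples compared or without the WT LPS samples and to 5 with sample weights, and ranged from 0 to 2 when 1 sample was left out. In LPS-treated cells it went from 1 to 0 with a pseudocount of 0.1, no filter, TMM factors, the 6 samples compared, or a log2 fold change beyond 2, and ranged from 0 to 3 when 1 sample was left out, while with sample weights it stayed at 1 but with Bst2 in place of Ifitm1. It went from 4 to 1 with the 6 samples compared and to 2 beyond a log2 fold change of 2 for LPS in WT cells, where it was 3 with no filter or after rescaling to a common total, 5 with sample weights, and 3 to 5 when 1 sample was left out. It went from 3 to 5 for LPS in cGAS-/- cells with the 6 samples compared, with sample weights or without the WT LPS samples, where leaving 1 sample out gave 3 to 5. The cause of these changes was not tested. Ifitm3 in LPS-treated cells turned to 0.15 with quantile normalization and 0.0779 after rescaling to a common total, and was at -1.003 with sample weights. It ranged from -0.91 without WT LPS replicate 3 to 0.75 without replicate 1. Ifitm2 there turned to -0.00935 with TMM factors and -0.56 with sample weights, and ranged from -0.56 without WT LPS replicate 3 to 0.86 without replicate 1. Ifitm2 in WT cells ranged from -0.21 without WT LPS replicate 1 to 1.21 without replicate 3. In the difference of the LPS effects Ifitm2 turned to -0.17 with sample weights and ranged from -0.16 without WT LPS replicate 3 to 1.25 without replicate 1, and Bst2 ranged from -0.78 without replicate 3 to 0.23 without replicate 1. Of all genes called with LPS in WT cells, 15.6% were higher as deposited, 38.1% with TMM factors and 39.5% with quantile normalization. In cGAS-/- cells these shares were 34.4%, 51.4% and 45.2%. In untreated cells between genotypes they were 13.8%, 20% and 26.7%, and for the difference of the LPS effects 81.3%, 74.1% and 66.9%. No pairing of samples by replicate number was visible. Same-numbered samples correlated at -0.031 to 0.038 in their deviations from the group means, and none of 18 pairs was over 0.1. Such correlations cannot tell whether same-numbered samples were prepared together. With the replicate block the number passing in LPS-treated cells went from 1 to 0, and the other numbers did not change.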
